A study of Mus musculus with 7 samples.

Results

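Messenger RNA of 10 fatty acid and triglyceride synthesis genes was followed in mouse spleens that had received hepatocytes, the main cell type of the liver. The 10 genes were taken by symbol from the 22173 genes of the table and were Srebf1, Acaca, Fasn, Scd1, Scd2, Fads1, Fads2, Elovl5, Dgat1 and Dgat2. The study asked whether a spleen remodelled beforehand with the biomaterial sHA-X differs in hepatic functions, fatty acid metabolism among them, from a spleen treated with phosphate-buffered saline (PBS). The sHA-X group (4 libraries) came from spleens injected with sHA-X 4 times and the PBS group (3 libraries) from spleens given PBS, and both were taken 30 days after the hepatocytes were put into the spleen, so every library comes from an organ that had received liver cells. The strain, age and sex of the mice and the origin of the hepatocytes are not given in the sources used here, nor is it stated that each library is 1 animal, and the p-values below therefore speak of the spread among libraries, which may be technical.

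Fatty acids are built in the cytosol from acetyl-CoA. Acetyl-CoA carboxylase (Acaca) makes malonyl-CoA, and fatty acid synthase (Fasn) joins these units into palmitate. Stearoyl-CoA desaturases (Scd1, Scd2) then introduce a double bond into saturated chains, while Fads1, Fads2 and Elovl5 desaturate and elongate the polyunsaturated chains supplied by the diet. The diacylglycerol acyltransferases Dgat1 and Dgat2 attach the last fatty acid of a triglyceride, and the transcription factor encoded by Srebf1 drives many genes of this route in liver and fat. Macrophages and lymphocytes of the spleen also make lipids, for membranes and for storage in droplets.

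The whole reads recovered from the values summed to between 29539957 and 37142213 per library, with counts too low for some genes high in 1 library. Genes that define spleen were present in all 7 libraries: Spic, which red pulp macrophages need to develop, ranged from 65.2 to 113.7 FPKM (fragments per kilobase of transcript scaled to the size of the library), and none of the 9 spleen markers was at 0. Some libraries also carried genes of other tissues. The summed FPKM of 8 hepatocyte markers was 2.27 to 7.36 in PBS, 4.13 and 21.2 in sHA-X replicates 1 and 2, and 686.5 and 707.3 in sHA-X replicates 3 and 4. Alb, the albumin gene, reached 325.3 and 370.4 FPKM in those last libraries and at most 8.49 FPKM elsewhere. The 6 pancreatic acinar markers summed to 683.8 in PBS replicate 2 and at most 35.1 elsewhere, and skeletal muscle markers to 151.1 in sHA-X replicate 2 and at most 9.999 elsewhere. Cpa1, a pancreatic carboxypeptidase, was 45.6 FPKM in PBS replicate 2 and at most 0.0853 FPKM elsewhere, and Ckm, muscle creatine kinase, was 31.9 FPKM in sHA-X replicate 2 and at most 0.0884 FPKM elsewhere. Adipocyte markers summed to 43.5 in sHA-X replicate 2, with Adipoq, the adiponectin gene, at 4.90 FPKM there, and to between 0.454 and 10.5 in the other libraries. Erythroid markers summed to 16414 and 15703 in PBS replicates 1 and 2 but 8318 in PBS replicate 3, against 6401 to 9820 in sHA-X.

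Of the 10 genes, 5 rose in sHA-X spleens and none fell (limma, adjusted p under 0.05 over all genes tested, with 7 higher and 0 lower at an unadjusted p under 0.05, and 0 lower by voom). The 5 were Dgat2, Dgat1, Fads2, Acaca and Fads1. The other 5, Scd1, Srebf1, Scd2, Elovl5 and Fasn, did not pass. Across the 11920 genes tested, 9.30% were called higher and 5.03% lower. All 10 genes had a difference above 0, as did 6656 of all tested genes, and their median difference in log2(FPKM + 1) was 0.26, beside 0.03 over all tested genes. All 4 sHA-X libraries lay above all 3 PBS libraries for 6 of the 10 (the 5 that rose and Srebf1), a pattern found in 17.2% of tested genes, with the opposite pattern in 11.5% of tested genes and none of the 10. Scaling every library to the same median left 3 of the 10 called higher (Dgat2, Dgat1 and Fads2), and moved the share of higher calls among all called genes from 64.9% to 53.2%. Leaving out sHA-X replicates 3 and 4, the libraries with hepatocyte genes, left only Dgat2 called, as did leaving out PBS replicate 1. Without sHA-X replicate 1 or 4 the count was 2, and without sHA-X replicate 2 or 3 it was 3. In bulk tissue, more cells that express a gene and more RNA per cell cannot be told apart.

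**Figure D1:**
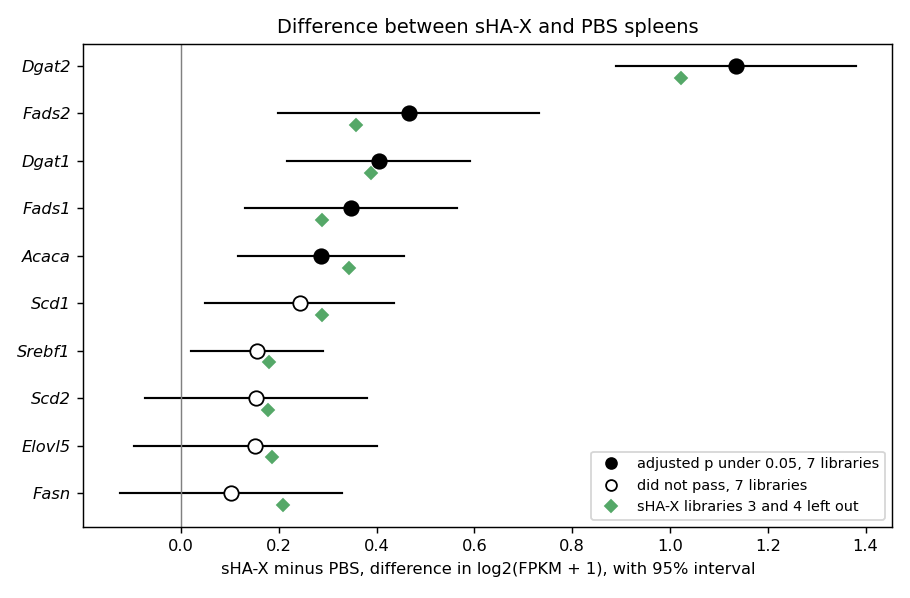
Difference between sHA-X and PBS spleens in log2(FPKM + 1) for each of the 10 genes, with the 95% interval of the fit over 7 libraries (circles, filled where the adjusted p is under 0.05) and the difference without sHA-X replicates 3 and 4 (diamonds). Dgat2 stands at 1.13, beyond the other 9 genes, which lie between 0.10 and 0.47.

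The 10 genes covered a wide range of levels. Averaged over all 7 libraries, Scd1 was the highest at 100.5 FPKM, followed by Elovl5 at 42.8 and Scd2 at 24.96 FPKM, and these 3 kept that order in every library without overlapping ranges. Fads1 (13.0 FPKM), Srebf1 (12.1), Fasn (10.5) and Fads2 (9.22) came next, and each overlapped its neighbour in this order. Dgat1 (6.78), Dgat2 (6.62) and Acaca (4.35 FPKM) were lowest, also with overlapping ranges. Because FPKM are scaled to transcript length, these levels can be set side by side.

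**Figure D2:**
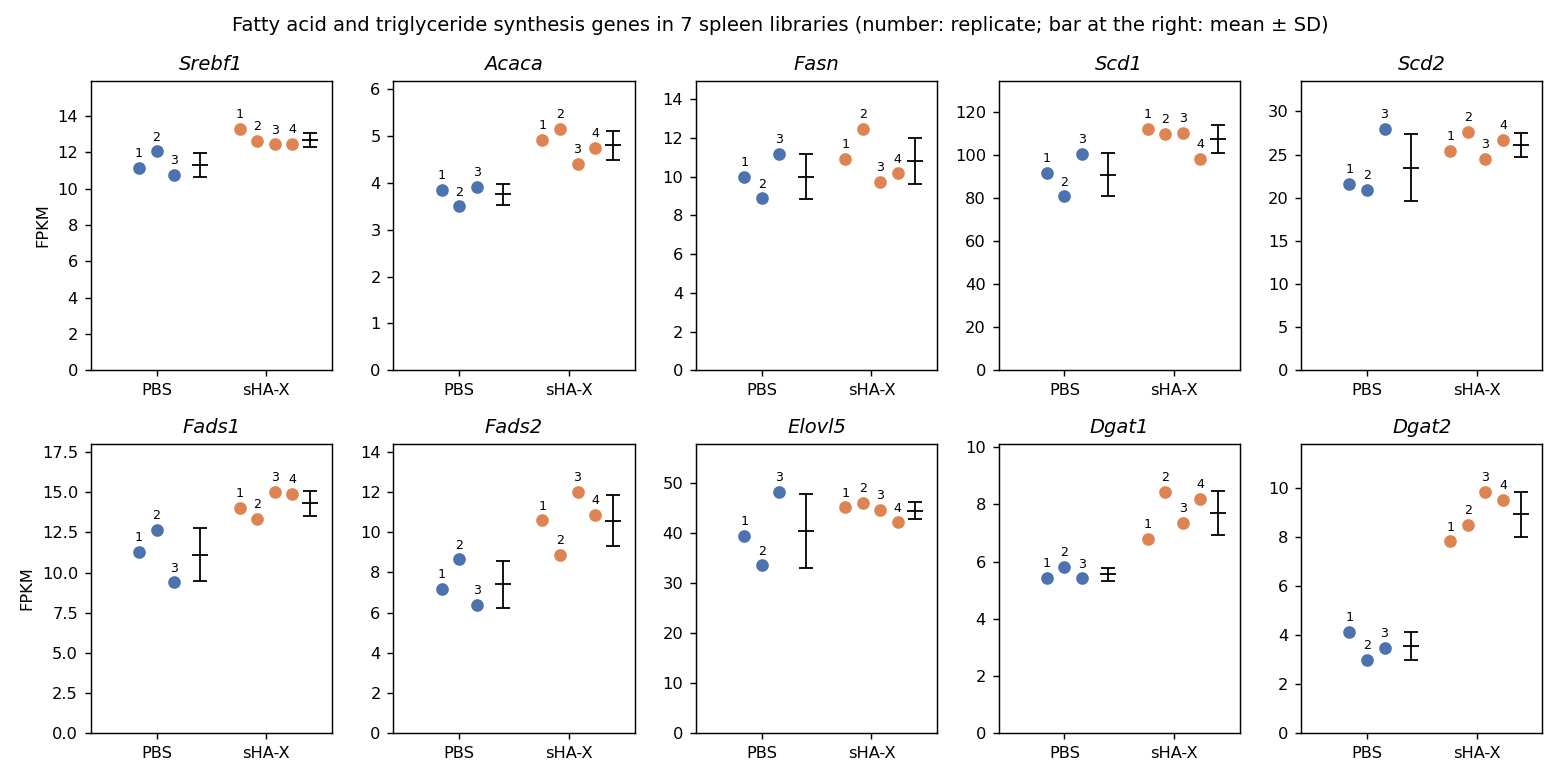
FPKM of each of the 10 genes in the 3 PBS (blue) and 4 sHA-X (orange) libraries, on axes that start at 0, with replicate numbers above the points and the mean ± SD of each group at its right. The 4 sHA-X values of Dgat2 (7.83 to 9.86 FPKM) lie far above its PBS values (2.99 to 4.13 FPKM), while those of Fasn, Scd1, Scd2 and Elovl5 overlap PBS.

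Srebf1, the transcription factor of the set (NCBI gene 20787, chromosome 11, 60199084 to 60224186), was 11.1, 12.05 and 10.7 FPKM in the PBS spleens, replicates 1 to 3 in order, and 13.3, 12.6, 12.4 and 12.5 FPKM in the sHA-X spleens, replicates 1 to 4 in order. The groups did not overlap, but the step between them was small, 1.12-fold by the ratio of means, and did not pass (difference in log2(FPKM + 1) 0.16, SE 0.06, 95% interval 0.02 to 0.29, adjusted p = 0.12 by limma). These intervals hold for 1 gene at a time and are not adjusted for the number of genes. Each Srebf1 value rests on 1755 to 2283 reads. RefSeq places 3 starts of the gene in the promoter table, and a value per gene does not separate the transcripts that begin at them.

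Promoter sequences show what the starts of these genes look like beside their different responses. RefSeq's promoter table (GRCm38.p6, the assembly also called mm10) held 5 of the 10 genes with 7 starts. The 250 bases before the start are shown 5′ to 3′ on the gene's strand for Fads2, which rose, for Fasn and Elovl5, which did not pass, and for 1 start of Srebf1, with matches to the searched motifs in capitals. The windows are chr19:10101504-10101753 (minus strand) for Fads2, chr11:120824548-120824797 (minus) for Fasn, chr9:77917115-77917364 (plus) for Elovl5 and chr11:60210472-60210721 (minus) for Srebf1.
Fads2: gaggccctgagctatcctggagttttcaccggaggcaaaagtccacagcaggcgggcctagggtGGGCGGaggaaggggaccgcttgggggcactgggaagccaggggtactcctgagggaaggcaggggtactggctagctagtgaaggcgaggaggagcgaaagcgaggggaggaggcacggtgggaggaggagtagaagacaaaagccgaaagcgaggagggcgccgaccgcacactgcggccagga
Fasn: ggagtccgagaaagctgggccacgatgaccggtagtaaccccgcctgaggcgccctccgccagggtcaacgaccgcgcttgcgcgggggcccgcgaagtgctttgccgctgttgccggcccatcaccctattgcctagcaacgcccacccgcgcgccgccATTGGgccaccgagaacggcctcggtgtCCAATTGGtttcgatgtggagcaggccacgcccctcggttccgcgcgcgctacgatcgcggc
Elovl5: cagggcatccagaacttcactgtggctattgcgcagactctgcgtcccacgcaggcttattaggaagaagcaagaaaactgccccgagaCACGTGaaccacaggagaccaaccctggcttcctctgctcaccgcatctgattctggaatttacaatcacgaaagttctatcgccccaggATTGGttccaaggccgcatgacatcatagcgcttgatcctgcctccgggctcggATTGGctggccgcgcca
Srebf1: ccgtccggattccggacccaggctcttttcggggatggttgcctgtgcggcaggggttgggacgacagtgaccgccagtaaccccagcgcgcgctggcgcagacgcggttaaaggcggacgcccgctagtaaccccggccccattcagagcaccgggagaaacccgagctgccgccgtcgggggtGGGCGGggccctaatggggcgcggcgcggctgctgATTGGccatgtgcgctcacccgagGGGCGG
The motifs, searched on both strands, were TCACNCCAC (a sterol regulatory element), CCAAT (the CCAAT box), CACGTG (an E-box), GGGCGG (a GC box) and the DR4 repeat, a paired half-site of the kind bound by liver X receptors. Fasn had 3 CCAAT matches, of which the 2 on opposite strands at -62 to -58 and -59 to -55 overlap. Elovl5 had 2 CCAAT matches and 1 E-box, Srebf1 1 CCAAT match and 2 GC boxes in the window shown, and Fads2 1 GC box. Acaca, which also rose, is not shown. Its window (chr11:84195188-84195437, plus strand, 39.2% GC) held no match to any of the motifs. Of the Srebf1 windows not shown, chr11:60220628-60220877 held 2 GC boxes and chr11:60222582-60222831 held 1 CCAAT match. The part of these motifs in the differences was not tested. In all 32851 promoters of the table, 33.8% held CCAAT, 32.7% the GC box, 6.02% the E-box and 1.05% TCACNCCAC. No match to TCACNCCAC or to the DR4 repeat was found in the 7 windows, which says only that these letters are not in these 250 bases.

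Of the pair that starts fatty acid synthesis, Acaca rose and Fasn did not pass. Acaca (NCBI gene 107476, chromosome 11, 84129635 to 84401651) was 3.85, 3.50 and 3.92 FPKM in the PBS spleens and 4.91, 5.14, 4.40 and 4.75 FPKM in the sHA-X spleens. All sHA-X values were above all PBS values, by 1.28-fold in the means (3.75 ± 0.22, SD, n = 3, and 4.80 ± 0.31, n = 4), and the test passed (difference 0.29, SE 0.07, adjusted p = 0.037 by limma). Leaving out PBS replicate 1 or 2 (adjusted p = 0.10 each) ended the call, as did leaving out sHA-X replicate 1 (0.088), 2 (0.086) or 4 (0.077) and the fit with libraries scaled to the same median (0.054).

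Fasn (NCBI gene 14104, chromosome 11, 120805958 to 120825166) was 9.99, 8.87 and 11.2 FPKM in the PBS spleens and 10.9, 12.5, 9.72 and 10.2 FPKM in the sHA-X spleens. Only sHA-X replicate 2 exceeded every PBS library, and the ranges overlapped. The difference was 0.10 (SE 0.10, 95% interval -0.12 to 0.33, adjusted p = 0.54), and it was -0.037 when both libraries numbered 2 were left out. In each library Fasn stood above Acaca. The ratio of Fasn to Acaca was 2.60, 2.54 and 2.85 in the PBS spleens and 2.23, 2.42, 2.21 and 2.14 in the sHA-X spleens. It was lower in every sHA-X library than in any PBS library, a description of 2 chosen genes with no test.

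Neither of the stearoyl-CoA desaturases passed in the fit over all 7 libraries. Scd1 (NCBI gene 20249, chromosome 19, 44394450 to 44407709) was 91.7, 80.8 and 100.4 FPKM in the PBS spleens and 112.0, 109.8, 110.3 and 98.1 FPKM in the sHA-X spleens. Replicates 1 to 3 of sHA-X were above every PBS library, and replicate 4 lay below PBS replicate 3. The difference was 0.24 (SE 0.08, 95% interval 0.05 to 0.44, adjusted p = 0.092 by limma). Scd2, its neighbour on the chromosome (NCBI gene 20250, 44293676 to 44306864), was 21.6, 20.9 and 27.9 FPKM in the PBS spleens and 25.4, 27.6, 24.5 and 26.7 FPKM in the sHA-X spleens. The highest value of Scd2 was thus in PBS replicate 3, and no sHA-X library exceeded it (difference 0.15, SE 0.10, 95% interval -0.07 to 0.38, adjusted p = 0.35). Without PBS replicate 3 both passed, Scd1 at an adjusted p of 0.032 and Scd2 at 0.027. Scd1 was 3.60 to 4.24 times Scd2 in PBS and 3.68 to 4.50 times in sHA-X. The transcripts of the pair are similar: 2.97% of the 50-base stretches of Scd1 transcripts also occur in Scd2 and 3.42% in Scd3, so a small share of reads could be placed on either copy.

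Both front-end desaturases of polyunsaturated fatty acids rose. Fads2, the delta-6 desaturase (NCBI gene 56473, chromosome 19, 10062765 to 10101503), was 7.20, 8.65 and 6.36 FPKM in the PBS spleens and 10.6, 8.88, 12.015 and 10.9 FPKM in the sHA-X spleens. The lowest sHA-X value, in replicate 2, was just above the highest PBS value, in replicate 2. The means stood 1.43-fold apart (difference 0.47, SE 0.12, adjusted p = 0.033 by limma). The call held only without PBS replicate 2 or sHA-X replicate 2 among the fits that left out 1 library. It was lost without PBS replicate 1 (adjusted p = 0.12) or 3 (0.067) or sHA-X replicate 1 (0.073), 3 (0.075) or 4 (0.080).

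Fads1, the delta-5 desaturase (NCBI gene 76267, chromosome 19, 10182877 to 10196874), was 11.3, 12.7 and 9.38 FPKM in the PBS spleens and 14.0, 13.4, 15.0 and 14.9 FPKM in the sHA-X spleens. The groups did not overlap, and the ratio of means was 1.29 (difference 0.35, SE 0.10, adjusted p = 0.045). This was the weakest of the 5 calls: it was lost in every fit that left out 1 library (adjusted p from 0.062 to 0.12) except the one without PBS replicate 2 (0.024), and with libraries scaled to the same median (0.061). In both genes sHA-X replicates 3 and 4, the libraries with hepatocyte markers, ranked first and second. Without those 2 libraries the differences were 0.36 for Fads2 (adjusted p = 0.21) and 0.29 for Fads1 (adjusted p = 0.26). The part of hepatocyte RNA in the full differences was not tested further.

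Elovl5, which elongates the products of Fads2 (NCBI gene 68801, chromosome 9, 77917365 to 77984519), was 39.4, 33.5 and 48.3 FPKM in the PBS spleens and 45.2, 46.1, 44.7 and 42.2 FPKM in the sHA-X spleens. PBS replicate 3 was the highest of all 7 libraries and PBS replicate 2 the lowest, so the PBS values enclosed the sHA-X values. The difference was 0.15 (SE 0.11, 95% interval -0.10 to 0.40, adjusted p = 0.40 by limma), and 0.29 without PBS replicate 3 (adjusted p = 0.041).

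The triglyceride-forming enzymes both rose, Dgat2 by the largest difference of the set. Dgat2 (NCBI gene 67800, chromosome 7, 99153663 to 99182713) was 4.13, 2.99 and 3.49 FPKM in the PBS spleens and 7.83, 8.52, 9.86 and 9.54 FPKM in the sHA-X spleens, from 215 to 299 and 563 to 801 reads. The lowest sHA-X library stood well above the highest PBS library. The means were 3.54 ± 0.57 and 8.94 ± 0.93 FPKM (SD, n = 3 and 4), a ratio of 2.53 (difference 1.13, SE 0.11, 95% interval 0.89 to 1.38, adjusted p = 0.00074 by limma). The call held in each fit that left out 1 library (difference 1.05 to 1.23, adjusted p at most 0.0037). It also held without sHA-X replicates 3 and 4 (1.02, adjusted p = 0.014), the libraries with the high hepatocyte sums. As for Fads1 and Fads2, these libraries ranked first and second for Dgat2. The part of hepatocyte RNA in its full difference was not tested.

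Dgat1 (NCBI gene 13350, chromosome 15, 76502012 to 76512021), an enzyme of unrelated sequence with the same reaction, was 5.44, 5.82 and 5.41 FPKM in the PBS spleens and 6.79, 8.44, 7.36 and 8.20 FPKM in the sHA-X spleens. All sHA-X values were above the narrow PBS range, with a ratio of means of 1.39 (difference 0.40, SE 0.08, adjusted p = 0.015). The call ended when PBS replicate 1 was left out (adjusted p = 0.068), without both libraries numbered 2 (0.061) and without sHA-X replicates 3 and 4 (0.11, at a difference of 0.39). The order of the pair changed between the groups. Dgat2 was 0.759, 0.513 and 0.646 times Dgat1 in PBS, and 1.15, 1.01, 1.34 and 1.16 times Dgat1 in sHA-X. Dgat1 was the higher of the pair in each PBS library and Dgat2 in each sHA-X library, by a narrow margin in replicate 2. No 50-base stretch is shared between their transcripts.

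The 3 tested genes whose profile over the 7 libraries was most like that of Dgat2 were Rnase4, Ndrg2 and C1qb. Likeness was the root mean square difference of log2(FPKM + 1) after centring each gene on its own mean, which was 0.096, 0.12 and 0.13. Rnase4, a secreted ribonuclease, was 11.3 ± 2.34 FPKM in the PBS group and 25.1 ± 2.10 in the sHA-X group. Ndrg2 was 2.80 ± 0.44 and 6.35 ± 1.10 FPKM. C1qb, a complement chain made by macrophages, was 209.7 ± 18.2 and 439.3 ± 20.4 FPKM. In all 3 genes, as in Dgat2, the highest values were in sHA-X replicates 3 and 4, the libraries with hepatocyte genes. In the macrophage marker list 7 of 8 tested genes rose, beside 9.30% of all tested genes. The list's sum was 854.7 to 1045 FPKM in PBS and 1657 to 1836 FPKM in sHA-X. The other gene, Marco, did not pass and was 136.0 ± 21.9 and 117.7 ± 22.0 FPKM (difference -0.21). In the fibroblast list 5 of 6 markers rose, with sums of 91.8 to 133.0 and 282.9 to 443.0 FPKM. The summed macrophage and fibroblast marker levels thus moved in the same direction as Dgat2, and the part of these cells in its difference was not tested.

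Among the PBS libraries the 10 genes split by which library was highest. Acaca, Fasn, Scd1, Scd2 and Elovl5 all ran in the order PBS replicate 3, 1, 2, from highest to lowest. Srebf1, Fads1, Fads2 and Dgat1 ran in the reverse order, 2, 1, 3. Dgat2 alone was highest in PBS replicate 1. The spread was largest for Elovl5, whose highest PBS value was 1.44 times its lowest, and smallest for Dgat1 at 1.08 times. PBS replicate 3 is the library with the low erythroid sum, and PBS replicate 2 the one with pancreatic genes. The adipocyte sum also ran in the order 3, 1, 2 (10.5, 8.80 and 0.782 FPKM). With 3 libraries there are few possible orders, and the part of these other cells in the split was not tested.

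**Figure D3:**
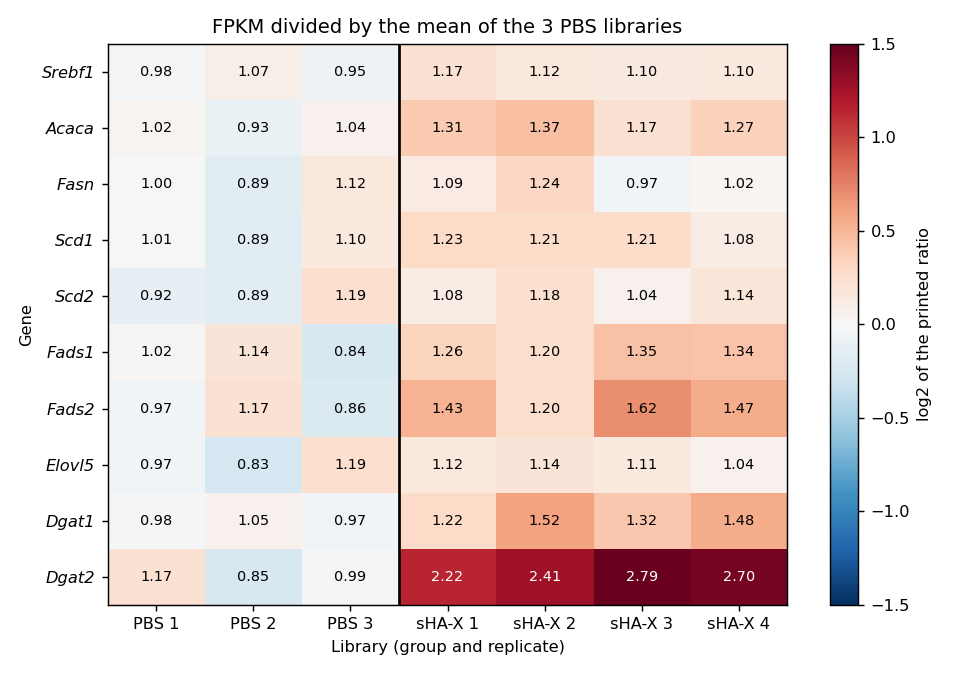
FPKM of each gene (rows) in each library (columns) divided by the mean of the 3 PBS libraries, with the ratio printed in each cell and colour on a log2 scale. Dgat2 reads 2.22 to 2.79 in the sHA-X libraries, and in PBS replicate 3 the values run from 0.84 (Fads1) to 1.19 (Scd2 and Elovl5).

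Among the sHA-X libraries the order was different. Acaca, Fasn, Scd2, Elovl5 and Dgat1 were highest in replicate 2, the library with adipocyte and muscle genes. Fads1, Fads2 and Dgat2 were highest in replicate 3, one of the 2 libraries with hepatocyte genes, and Srebf1 and Scd1 in replicate 1. Replicate 3 was at the same time the lowest library for Srebf1, Acaca, Fasn and Scd2. Over the whole set the highest sHA-X library was from 1.07 times (Srebf1) to 1.35 times (Fads2) the lowest. The part of hepatocyte and other cells in these orders was not tested.

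Most other tested genes of the pathway did not pass. Of 76 listed genes outside the 10, 55 were above the filter of 1 FPKM on average, and 14 of these rose, 1 fell and 40 did not pass. Among all 11920 genes tested, 9.30% were called higher and 5.03% lower. All sHA-X libraries lay above all PBS libraries for 23 of the 55 and below for 1, beside 17.2% and 11.5% of all tested genes. The median difference of the 55 was 0.11, beside 0.03 over all tested genes. Leaving out 1 library gave between 2 (without PBS replicate 1) and 13 rises, and scaling to the same median gave 9. The count was 8 without PBS replicate 2 or sHA-X replicate 1, 9 without sHA-X replicate 3, and 7 without sHA-X replicate 2 or 4.

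Of the regulators, 2 of 10 tested rose, beside 9.30% of all tested genes. Nr1h3, which encodes liver X receptor alpha, an activator of Srebf1 transcription, was 28.6 ± 3.25 FPKM in the PBS group and 39.5 ± 3.42 in the sHA-X group (difference 0.45, SE 0.09, adjusted p = 0.014 by limma, and 0.070 without PBS replicate 1). Pparg also rose (4.53 ± 0.84 to 6.69 ± 1.003 FPKM, adjusted p = 0.046). Insig1, an inhibitor of the processing of the Srebf1 protein, did not pass (12.4 ± 1.73 and 16.4 ± 3.13 FPKM, adjusted p = 0.15). Mlxipl, the carbohydrate-response factor ChREBP, was under the filter. It reached 0.401 FPKM in sHA-X replicate 3 and 0.492 FPKM in replicate 4, and no other library exceeded 0.0171 FPKM.

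Of the 7 genes that supply acetyl-CoA and NADPH, 4 rose, beside 9.30% of all tested genes. G6pdx, the first enzyme of the pentose phosphate pathway, went from 30.0 ± 1.68 to 41.6 ± 1.82 FPKM (difference 0.46, SE 0.06, adjusted p = 0.0027), and kept its call without any 1 library. Slc25a1, the mitochondrial citrate carrier, went from 16.2 ± 1.10 to 21.01 ± 1.45 FPKM (adjusted p = 0.015, and 0.071 without PBS replicate 1). Pgd (47.9 ± 1.16 to 58.4 ± 5.47 FPKM) and Idh1 (31.4 ± 2.59 to 41.8 ± 5.44 FPKM), both NADPH-forming dehydrogenases, were the other 2. Their adjusted p by limma was 0.048 and 0.034, that of Pgd being close to the threshold. Acly, which cleaves citrate to acetyl-CoA, was 31.8 ± 2.95 and 33.7 ± 1.72 FPKM and did not pass (95% interval -0.08 to 0.26, adjusted p = 0.49). None of the 4 genes listed beside Acaca and Fasn for fatty acid synthesis passed in limma, 0 had an unadjusted p under 0.05, and voom called none. Acacb, the mitochondrial-surface carboxylase, was 1.46 ± 0.11 and 1.81 ± 0.29 FPKM (adjusted p = 0.25).

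Of 9 tested genes of elongation and desaturation, 2 rose, beside 9.30% of all tested genes. Both belong to the shared elongation machinery. Hsd17b12, the ketoacyl reductase, went from 36.0 ± 3.02 to 49.1 ± 3.77 FPKM (adjusted p = 0.0095 by limma), and Hacd3, a dehydratase, from 20.8 ± 0.28 to 25.6 ± 1.10 FPKM (adjusted p = 0.011). Both calls were lost without PBS replicate 1 (0.051 and 0.058). The palmitate elongase Elovl6 was 2.39 ± 0.10 and 2.61 ± 0.54 FPKM (adjusted p = 0.71). Elovl3 reached 5.28 FPKM in sHA-X replicate 3 and 5.13 FPKM in replicate 4, and no other library exceeded 0.0475 FPKM, so its group difference did not pass (adjusted p = 0.37). Of the acyl-CoA synthetases 2 of 4 tested rose. Acsl5 went from 50.4 ± 1.80 to 60.6 ± 2.84 FPKM (adjusted p = 0.022), a call lost without PBS replicate 1 (0.067) or sHA-X replicate 3 (0.060) or 4 (0.055), and Acsl3 went from 4.15 ± 0.18 to 5.10 ± 0.10 FPKM (0.035).

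Of 11 tested genes of the glycerolipid steps before the Dgat enzymes, none was called higher and 1 lower. Over all tested genes the shares were 9.30% and 5.03%, so counts this small in so short a list are near those shares. In limma 3 had an unadjusted p under 0.05, namely Gpat3, Gpam and Agpat2, and voom also called none higher. Gpat3, a glycerol-3-phosphate acyltransferase of the first step, was 3.44, 3.97 and 3.69 FPKM in the PBS spleens and 2.19, 1.59, 2.15 and 1.76 FPKM in the sHA-X spleens. Every sHA-X value was below every PBS value (difference -0.69, SE 0.10, adjusted p = 0.0034 by limma), and the call held in each fit that left out 1 library (adjusted p at most 0.016). Gpam, the mitochondrial enzyme of the same step, did not pass (4.78 ± 0.08 and 5.48 ± 0.41 FPKM, adjusted p = 0.16).

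Of 9 tested genes of lipid droplets and lipolysis, 4 rose, beside 9.30% of all tested genes. These were Plin2, the triglyceride lipase Pnpla2 (23.4 ± 2.52 to 29.6 ± 1.07 FPKM), its activator Abhd5 (7.38 ± 0.91 to 9.32 ± 0.47 FPKM) and Fitm2, a protein of droplet formation (3.003 ± 0.39 to 4.13 ± 0.28 FPKM). By limma the adjusted p was 0.025 for Pnpla2, 0.030 for Fitm2 and 0.046, close to the threshold, for Abhd5. Plin2, a coat protein of droplets in macrophages and hepatocytes, was 25.04, 25.7 and 26.2 FPKM in the PBS spleens and 36.6, 34.4, 38.5 and 35.8 FPKM in the sHA-X spleens. The groups were clearly apart (difference 0.49, SE 0.06, adjusted p = 0.0015), and the call held without any 1 library (adjusted p at most 0.013) and without sHA-X replicates 3 and 4 (0.025). Mttp, which loads triglyceride onto lipoproteins, was under the filter, with 1.58 FPKM in sHA-X replicate 3, 1.47 FPKM in replicate 4 and 0.504 to 0.831 FPKM elsewhere.

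**Figure D4:**
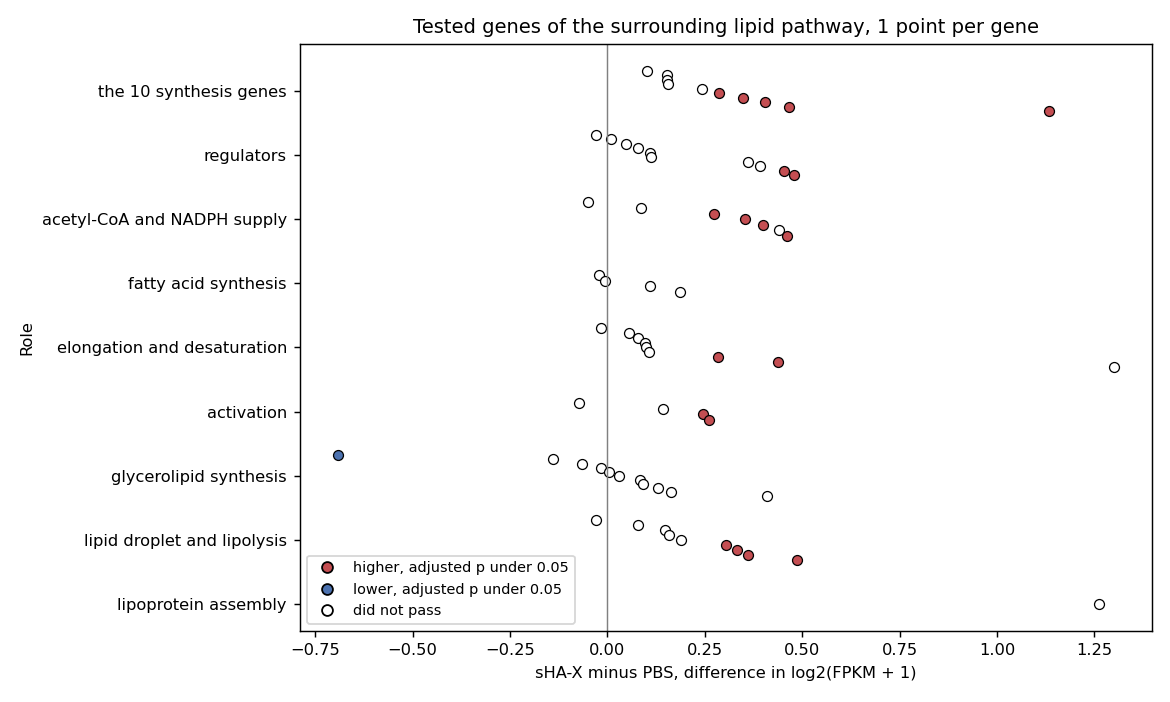
Difference between sHA-X and PBS in log2(FPKM + 1) for the 10 synthesis genes and the 55 tested genes of the surrounding pathway, by role, with 1 point per gene (red or blue where higher or lower at an adjusted p under 0.05, white otherwise). Dgat2 lies at 1.13 and Gpat3 at -0.69. The open points of elongation at 1.30 and lipoprotein assembly at 1.26 are Elovl3 and Apob, which were high only in sHA-X replicates 3 and 4.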

How the data were processed

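RNA sequencing values of 7 mouse spleen libraries were used. The authors deposited 1 value per gene and library, read here as FPKM because the header names no unit and the values of a gene are whole multiples of 1 step per library. Per the submitters' processing notes, fastp, HISAT2, HTSeq, DESeq2, R 3.2.0 and mm10 were used, with no roles given. The sources used here do not name the strand setting. Exons of Srebf1 share 3.11% of their bases with other genes (Rai1 on the opposite strand among them), those of Scd2 1.12% with a microRNA gene, and those of the other 8 none in GENCODE M21.

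Values were turned back into the smallest whole reads that fitted within 0.005 of a read. A solution was found for 16889 of the 16889 genes detected in 2 or more libraries, which does not mean that each is right. For genes high in 1 library and near 0 elsewhere it is too low. Cpa1, at 45.6 FPKM in PBS replicate 2, was given 1 read there. Library totals departed from the depth given by the steps by at most 0.17%. The reads served as depth and for 1 added alternative. The main comparison, sHA-X minus PBS with no other covariate, ran limma 3.58.1 (R 4.3.3, trend and robust options) on log2(FPKM + 1). A filter of 1 FPKM on the mean kept 11920 of 22173 genes, over all of which Benjamini-Hochberg adjustment was made. A difference on this scale understates the change of low genes. The test was tried on simulated data.

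The 10 genes and all lists were chosen with earlier results of these data known. Named were all 10 genes, the 8 called pathway genes with the smallest p, 9 fixed ones (Nr1h3 and Plin2 are in both sets, so 15 pathway genes in all), 5 markers, and the 3 genes most like Dgat2. Apob, Elovl3, Pparg and other called genes given by name alone were named after their values were seen. Alternatives were another pseudocount, filter or scaling, no robust option, a replicate block, each library left out, 2 pairs of libraries left out and, chosen after seeing the data, voom on recovered reads. Positions and promoters are RefSeq's for GRCm38.p6, matched by NCBI gene identifier for all 10 genes.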

Additional observations from a re-analysis of the deposited data

Results flagged for a closer look

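In 25 groups of 4 sHA-X values (the 10 genes and 15 named pathway genes), 2 had a library that stood apart by Dixon's test at 95%, which flags about 1 in 20 groups by chance. Scd1 was 98.1 FPKM in sHA-X replicate 4, and its gap to the next library was 0.839 of the group's range. Nr1h3 was 44.6 FPKM in sHA-X replicate 3, with a gap of 0.979 of the range.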

How the results depend on the processing

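Of 159 alternative values for the 10 genes, 158 were above 0. Of the 159, 123 stayed on the same side of the threshold, 32 lost a call and 3 gained one, and Fasn turned to -0.037 without both libraries numbered 2, where Acly also turned (-0.0066). Dgat2 held its call in all 16 alternatives. Of the 10 genes, 3 were called higher with no filter, 3 with median scaling, 3 without both libraries numbered 2 and 1 without sHA-X replicates 3 and 4. The number ranged from 1 to 6 with 1 library left out. Pathway rises numbered 9 with median scaling, 2 without both libraries numbered 2 and 2 without sHA-X replicates 3 and 4, and 2 to 13 with 1 library left out. Pathway falls numbered 0 at a mean of at least 5 FPKM, where Gpat3 was not tested, and 1 to 3 with 1 library left out. Over all genes, 1108 were higher and 600 lower, 492 and 330 without both libraries numbered 2, and 384 and 116 without sHA-X replicates 3 and 4. With 1 library left out, 488 to 1263 were higher and 228 to 637 lower. Elovl6 ranged from -0.018 (without sHA-X replicate 4) to 0.14 with 1 library left out. The test voom on recovered reads, added after the data were seen, called 1134 genes higher and 699 lower of 14471 and the same number of the 10, 5. Fits on fewer libraries have less power, and the cause of the other changes was not tested. Values of the 10 genes rest on 215 reads or more, and the part of counting error in their spread was not tested.

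The labels do not say whether the replicate numbers pair the libraries. The deviations of same-numbered libraries from their group means had correlations of 0.15, -0.214 and -0.286 over genes. Only number 1 correlated best with its own. Deviations centred on the means of so few libraries cannot settle whether the numbers pair them. With the replicate block, 276 genes were higher and 72 lower, 1 of the 10 (Dgat2, adjusted p = 0.025) was higher, 2 pathway genes were higher and 0 lower, and Elovl6 was -0.018. This fit draws nothing from sHA-X replicate 4, which has no PBS library of its number.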

Other observations

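Several low genes of lipid storage and elongation, named after their values were seen, were high in sHA-X replicate 2 alone or in replicates 3 and 4. The adipocyte droplet genes Plin1 and Cidec were highest in sHA-X replicate 2, at 2.02 and 3.59 FPKM, against at most 0.421 and 1.17 FPKM elsewhere. Plin4 was 1.36 FPKM in that library and at most 0.294 FPKM elsewhere. Cideb, the droplet protein typical of liver, reached 2.47 FPKM in sHA-X replicate 3 and 1.96 FPKM in replicate 4, with no other library over 0.372 FPKM. Elovl2, an elongase of long polyunsaturated chains, was 1.5997 and 2.21 FPKM in the same 2 libraries and at most 0.237 FPKM elsewhere. These genes were under the filter and were not tested.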
